A study of Mus musculus with 24 samples.

Results

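Calcium that enters a dendritic spine binds calmodulin, and calcium-loaded calmodulin switches on a kinase, CaMKII, and a phosphatase, calcineurin, whose opposing actions set synaptic strength. The group of 9 genes followed here holds the calmodulin genes Calm2 and Calm3, the CaMKII subunit genes Camk2a, Camk2b, Camk2d and Camk2g, the calcineurin catalytic subunit genes Ppp3ca and Ppp3cb, and the calcineurin regulatory subunit gene Ppp3r1. They were taken by symbol from tables of RNA (23845 rows) and of ribosome-protected fragments (RPFs, the mRNA stretches covered by a ribosome; 20436 rows). All 9 of 9 were present in both tables and passed the filter on low counts, which left 14516 genes for RNA and 12877 for RPFs. The group was chosen by symbol with earlier results in view, and above all on the RNA values of Ppp3ca after DHPG, so that change is described here without a test.

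Acute hippocampal slices came from male mice of 28 to 42 days that were wild-type (WT) or Tsc2+/-, with 1 inactivated copy of Tsc2, an inhibitor of mTOR signaling. The Tsc2+/- mice were germline heterozygotes obtained with CMV-Cre and a floxed allele, and WT littermates were the controls. Slices of both genotypes received vehicle or DHPG, which activates group I metabotropic glutamate receptors (mGluRs), at 100 µM for 5 min, and all slices were then placed in cycloheximide, which halts ribosomes on the mRNA. Each of the 4 groups (each genotype with each treatment) had 3 RNA-seq and 3 ribosome profiling libraries, 24 in all, and each pool of slices, from 6 mice, was divided between the assays. CA3 had been removed, so the tissue was enriched in CA1. In such bulk libraries fewer cells of a type and less RNA per cell cannot be told apart.

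CaMKII holoenzymes are built mainly from the alpha and beta subunits in forebrain excitatory neurons and are known for their part in long-term potentiation and memory. Calcineurin, a heterodimer of a catalytic and a regulatory subunit, is known for its part in long-term depression. Calmodulin, their shared activator, is encoded by several genes whose protein is identical.

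RNA libraries held 14801679 to 24067838 counts and RPF libraries 5296006 to 13613673. In the RPF libraries of replicates 2 and 3, 97.9% to 98.5% of the non-zero counts were even, against 48.2% to 49.0% in those of replicate 1. Tsc2 RNA averaged 191 CPM (counts scaled to library size) in WT vehicle and 134 CPM in Tsc2+/- vehicle, a log2 fold change of -0.52 (SE 0.054; lower in 3 of 3 same-numbered pairs of libraries; edgeR quasi-likelihood test, adjusted p = 2.0e-07). Tsc2 RPFs averaged 133 and 79.4 CPM. Summed over 5 CA1 pyramidal markers, RNA was 1639 to 1815 CPM over the 12 libraries, whereas 4 CA3 markers summed to 65.4 to 96.6 CPM. Markers of astrocytes (1727 to 2057 CPM) and oligodendrocytes (4400 to 5726 CPM) were also present, and markers of the choroid plexus summed to 15.5 to 24.9 CPM, with the defining marker Ttr at 0 to 0.587 CPM. Inhibitory interneuron (828 to 882 CPM), microglia (167 to 227 CPM) and endothelial (42.5 to 66.8 CPM) markers were found at these levels in all 12 libraries. None of the genes tested from the 10 cell type marker lists was called for DHPG in RNA, against 0.0207% of all genes, so this says little about the markers. Of the 4 CA3 markers 3 were tested, and of the 4 choroid plexus markers 1. Summed dentate granule markers were 55.7 to 85.6 CPM in WT and 47.4 to 62.4 CPM in Tsc2+/- libraries. Of these 5 markers 1 was called for genotype averaged over treatments (0.227% of all genes).

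Because Calm2 and Calm3 encode the same protein, their sequences decide whether a footprint of about 30 bases can be assigned to one of them. On GRCm38.p6, the build of the deposited counts, Calm2 lies at chr17:87433401-87446935 and Calm3 at chr7:16915379-16924032, both on the minus strand. Their coding sequences are 450 bases long, differ at 78 positions (82.7% identity), share no identical run longer than 17 bases and translate to the same protein. Among 30-base stretches inside one exon that start with a codon, the first with the most differences spans coding bases 184 to 213. It is shown with the 8 differing bases in capitals (chr17:87435676-87435705 and chr7:16917458-16917487, both read from the minus strand).
Calm2: ggCacAattgaTttcccTgaAttTCtgacA
Calm3: ggGacCattgaCttcccAgaGttCTtgacC

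No 30-base window of the trimmed coding sequence of Calm2 or Calm3 occurred in another gene of the group. Of the 361 windows of each gene, however, 70.9% for Calm2 and 29.1% for Calm3 occurred elsewhere in the genome. For the other 7 genes this share was 0.943% to 2.12%. Only uniquely mapped reads had been counted, and reads from such windows have more than one possible place in the genome. The effect on the levels of Calm2 and Calm3 was not tested.

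The other genes are spread over 4 chromosomes. Camk2a lies at chr18:60925307-60988152, Camk2b at chr11:5969629-6066357, Camk2d at chr3:126595487-126846326 and Camk2g at chr14:20734873-20794157. Ppp3ca lies at chr3:136669714-136937727, Ppp3cb at chr14:20499364-20546573 and Ppp3r1 at chr11:17159298-17200380. Camk2g and Ppp3cb are thus close together on chromosome 14, both on the minus strand.

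Together the 9 genes took 1.37% to 1.54% of the RNA counts and 1.23% to 1.35% of the RPF counts of a library. Levels were compared between genes as CPM per kb of transcript for RNA and as CPM per kb of trimmed coding sequence for RPFs, over 12195 genes with a gene model and a value in both assays. The 3 genes highest in RNA were Calm3 with 1151 ± 43.6 CPM per kb (SD, n = 12 libraries), Camk2a with 1139 ± 73.1 and Calm2 with 1036 ± 75.0, and the ranges of neighbours in this order overlapped. Ppp3r1 (407 ± 23.5 CPM per kb) and Ppp3ca (391 ± 28.9 CPM per kb) followed, and their ranges also overlapped.

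Below them the order was distinct, with no overlap between neighbours over the 12 libraries. Camk2b stood at 278 ± 16.9 CPM per kb, Ppp3cb at 97.9 ± 4.41, Camk2g at 39.1 ± 1.86 and Camk2d at 8.26 ± 0.818. Camk2d, a subunit better known from the heart, was thus near the median of all genes (8.38 CPM per kb), whereas the other 8 genes were at percentile 85.7 or above.

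RPFs gave another order. Calm2 was highest (6061 ± 691 CPM per kb of coding sequence) and overlapped no other gene of the group, an order that holds for the longest coding transcript: with the median over coding transcripts as the gene model Camk2a was at 7120 and Calm2 at 7035. Calm3 (3483 ± 167), Ppp3r1 (3360 ± 175) and Camk2a (2808 ± 243) followed with ranges that overlapped between neighbours. Ppp3ca (1603 ± 84.8), Camk2b (594 ± 35.1), Ppp3cb (284 ± 15.5), Camk2g (104 ± 5.27) and Camk2d (50.6 ± 5.41) came next, each apart from the one before.

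Translational efficiency (TE), the RPFs per RNA, was taken per length as the ratio of these levels, with a median of 2.26 over all genes. Ppp3r1 had the highest TE of the group, 8.29 ± 0.653, at percentile 95.3 of all genes, and did not overlap the next gene. Camk2d (6.15 ± 0.528) and Calm2 (5.90 ± 0.900) were at percentiles 90.5 and 89.4, and Ppp3ca (4.12 ± 0.393) at 78.5. Calm3 (3.03), Ppp3cb (2.91), Camk2g (2.66), Camk2a (2.47) and Camk2b (2.14) lay between percentiles 47.1 and 64.6, and the ranges of all neighbours below Ppp3r1 overlapped. The place of Camk2a depended on the gene model: with the median over its 3 coding transcripts its TE was 5.40, at percentile 86.6.

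**Figure D1:**
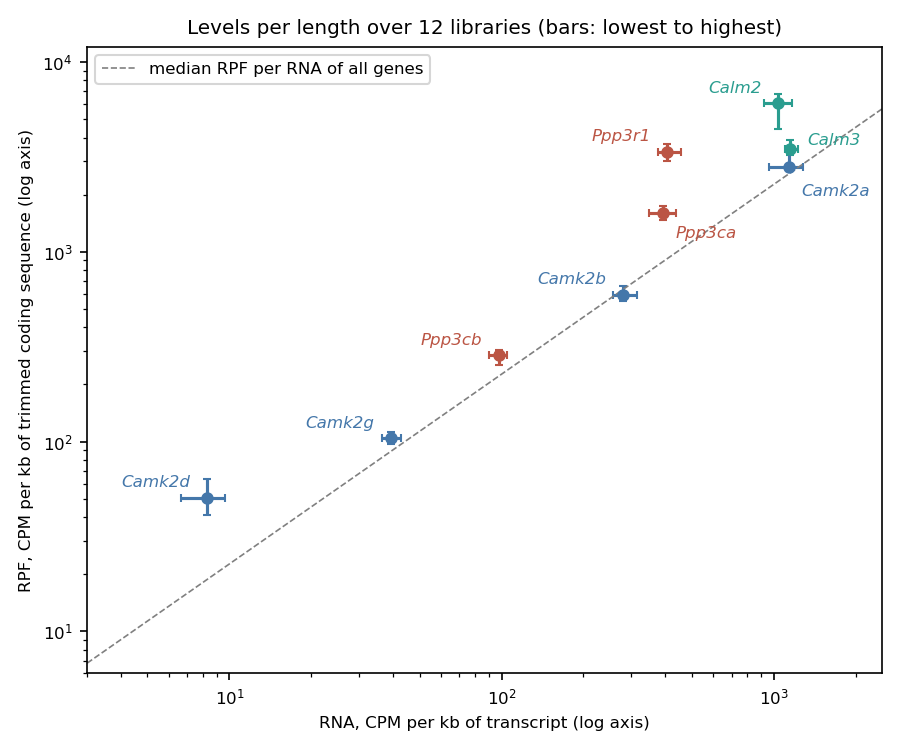
RNA level (CPM per kb of transcript) against RPF level (CPM per kb of trimmed coding sequence), both on log axes, for the 9 genes; points are means over 12 libraries, bars run from the lowest to the highest library, and the dashed line marks the median TE of all genes, 2.26. Ppp3r1 at 8.29 lies farthest above the line, Camk2b at 2.14 just below it, and Camk2d is the least abundant in both assays.

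To see which of these mRNAs respond to mGluR stimulation, DHPG was compared with vehicle. All 3 calcineurin genes had lower mean RNA levels with DHPG in both genotypes, and their RPF means differed less. Ppp3ca, the more abundant catalytic subunit gene, had the largest of these RNA differences. Its RNA was 2124, 1922 and 1970 CPM in WT vehicle (replicates 1, 2 and 3) and 1890, 1804 and 1738 CPM in WT DHPG. In Tsc2+/- slices it was 2114, 1861 and 2020 CPM with vehicle and 1811, 1791 and 1692 CPM with DHPG. Every DHPG library thus lay below every vehicle library of its genotype. As a description of the change that drew attention to the gene, the log2 fold change was -0.15 (SE 0.046) in WT and -0.18 (SE 0.046) in Tsc2+/-, and -0.16 (SE 0.032) averaged over genotypes, about 10.7% less RNA. In every alternative tried this value stayed below 0, which carries no weight because the same libraries drew attention to the gene.

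Ppp3cb, the other catalytic subunit gene of the group, had lower values at a lower level. Its RNA was 397, 359 and 384 CPM in WT vehicle and 373, 344 and 356 CPM in WT DHPG, so these groups overlapped. The Tsc2+/- values were 380, 400 and 391 CPM with vehicle and 370, 375 and 370 CPM with DHPG, without overlap. The log2 fold change averaged over genotypes was -0.079 (SE 0.035), lower in 6 of 6 same-numbered pairs, but did not pass the test (edgeR quasi-likelihood test, adjusted p = 0.63).

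Ppp3r1, whose protein carries the calcium-binding sites of calcineurin, had 1296, 1113 and 1206 CPM in WT vehicle and 1144, 1065 and 1135 CPM in WT DHPG, and the groups overlapped. Its RNA in Tsc2+/- slices was 1202, 1146 and 1198 CPM with vehicle and 1113, 1123 and 1059 CPM with DHPG, without overlap. Averaged over genotypes the log2 fold change was -0.11 (SE 0.034), lower in 6 of 6 pairs (edgeR quasi-likelihood test, adjusted p = 0.50). With DESeq2 in place of edgeR its adjusted p was 0.094, past the threshold of 0.1; over all the alternatives tried it ran from 0.094 to 0.92.

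The 3 calcineurin genes were the members whose RNA was lower in 6 of 6 same-numbered pairs, and 2.47% of all genes tested were lower in 6 of 6. None of the 9 was higher in 6 of 6 (2.3% of all genes). Groups that did not overlap within a genotype, with DHPG lower, were found for 1 gene of the group in WT (Ppp3ca; 4.92% of all genes) and for 3 in Tsc2+/- slices (Ppp3ca, Ppp3cb and Ppp3r1; 4.46%). In both genotypes at once this held for Ppp3ca alone, against 0.317% of all genes. Ppp3ca was in the rule by which the group was put together, so its part in these counts carries no weight.

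**Figure D2:**
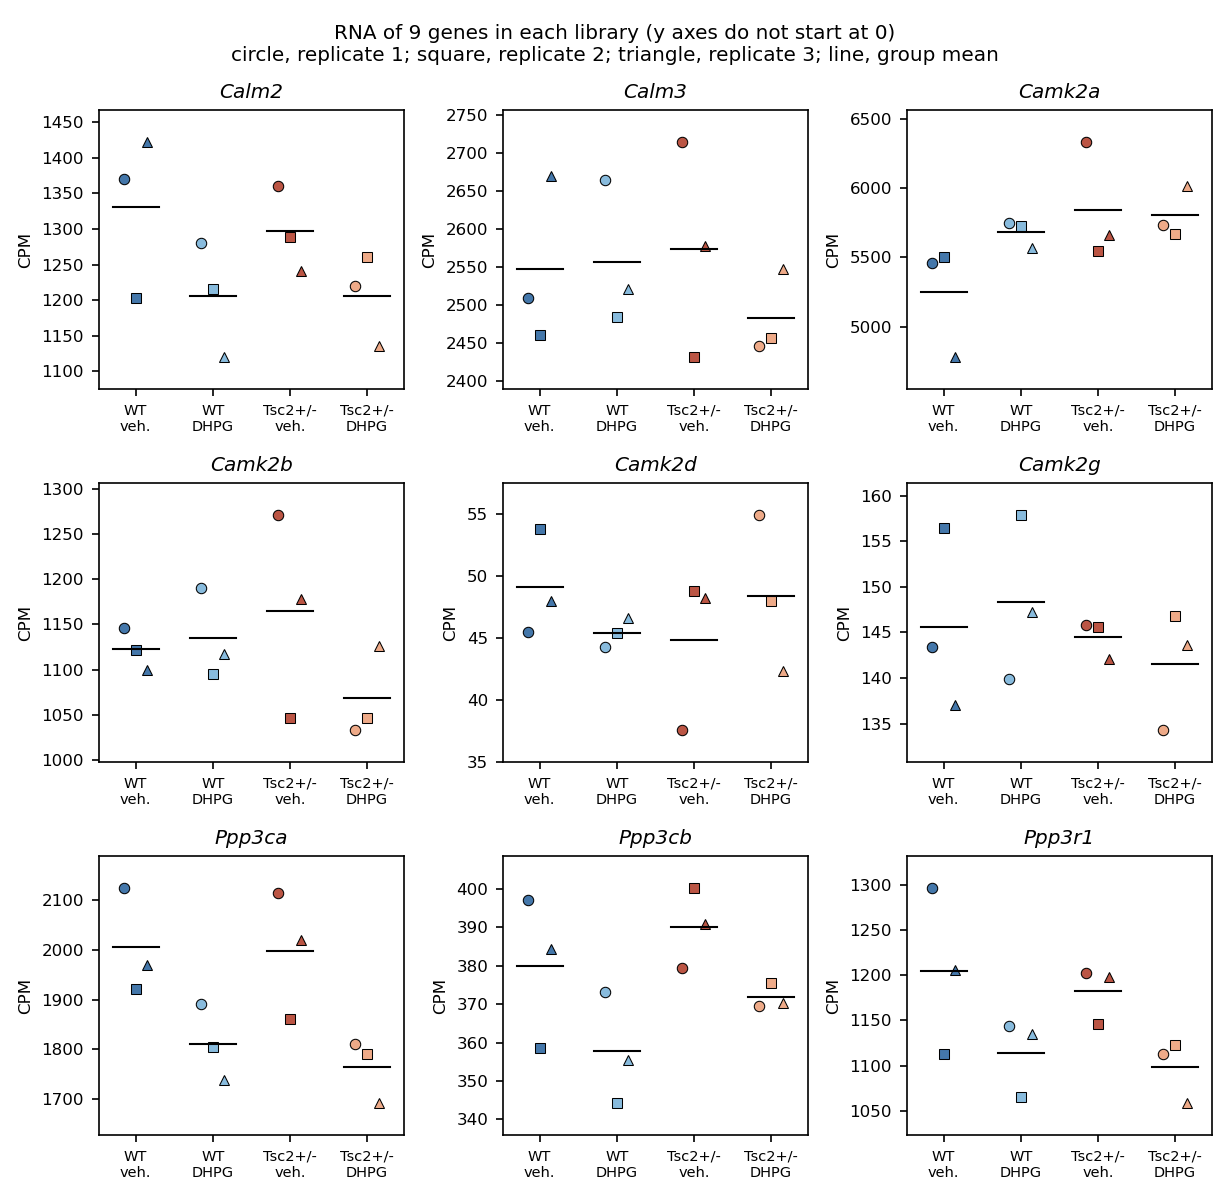
RNA in CPM (y axes do not start at 0) of the 9 genes in each of the 12 RNA libraries; symbols mark replicate numbers, colors the 4 groups and lines the group means. For Ppp3ca the DHPG libraries, at 1692 to 1890 CPM, lie below the vehicle libraries of their genotype, and for Camk2a one WT vehicle library, at 4782 CPM, lies below the other 11.

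Among the calmodulin genes, Calm2 RNA was 1370, 1202 and 1421 CPM in WT vehicle and 1281, 1215 and 1120 CPM in WT DHPG. In Tsc2+/- slices it was 1360, 1289 and 1241 CPM with vehicle and 1221, 1261 and 1135 CPM with DHPG. Groups overlapped in both genotypes, and the exception among the 6 pairs was replicate 2 of WT. The average log2 fold change was -0.12 (SE 0.038), lower in 5 of 6 pairs (edgeR quasi-likelihood test, adjusted p = 0.50). Without the RNA library of WT vehicle replicate 2 the value was -0.18 and Calm2 passed the threshold.

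Calm3, which makes the same protein, had 2461 to 2670 CPM in WT vehicle and 2485 to 2665 in WT DHPG, and 2432 to 2714 in Tsc2+/- vehicle and 2447 to 2548 in Tsc2+/- DHPG. Its average log2 fold change was -0.022 (SE 0.032), lower in 3 of 6 pairs. The ratio of Calm2 to Calm3 RNA counts averaged 0.522 ± 0.030 in WT vehicle and 0.471 ± 0.024 in WT DHPG, and 0.504 ± 0.024 in Tsc2+/- vehicle and 0.486 ± 0.036 in Tsc2+/- DHPG (SD, n = 3).

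The CaMKII genes had RNA values of either sign. Camk2a RNA averaged 5249 ± 405 CPM in WT vehicle and 5680 ± 99.5 in WT DHPG, and 5845 ± 422 in Tsc2+/- vehicle and 5807 ± 184 in Tsc2+/- DHPG. It was higher with DHPG in 5 of 6 pairs, with an average log2 fold change of 0.054 (SE 0.035; edgeR quasi-likelihood test, adjusted p = 0.74). Camk2b, whose subunit binds actin, averaged 1123 ± 23.2 CPM in WT vehicle and 1134 ± 49.3 in WT DHPG, and 1165 ± 112 in Tsc2+/- vehicle and 1069 ± 50.2 in Tsc2+/- DHPG (log2 fold change -0.054, SE 0.036, and -0.12, SE 0.050, in Tsc2+/- alone). Camk2d (42.3 to 54.9 CPM with DHPG and 37.6 to 53.8 CPM with vehicle) and Camk2g (134 to 158 CPM with DHPG and 137 to 156 CPM with vehicle) had fold changes within 1 SE of 0 averaged over genotypes. By genotype, Camk2d had a value of -0.11 (SE 0.095; lower in 3 of 3 pairs) in WT. In Tsc2+/- it was 0.11 (SE 0.093; lower in 2 of 3 pairs).

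The ratio of Camk2a to Camk2b RNA counts was 4.67 ± 0.291 in WT vehicle and 5.01 ± 0.202 in WT DHPG, and 5.03 ± 0.253 in Tsc2+/- vehicle and 5.44 ± 0.104 in Tsc2+/- DHPG (SD, n = 3, no test). The ratio of their RPF counts was 4.28 ± 0.346, 4.04 ± 0.109, 4.10 ± 0.111 and 4.08 ± 0.217 in the same groups, and all 4 groups overlapped.

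In the RPFs the calcineurin genes did not show the lower values of their RNA. Ppp3ca RPFs were 2206, 2339 and 2640 CPM in WT vehicle and 2412, 2389 and 2508 CPM in WT DHPG. The Tsc2+/- libraries had 2499, 2305 and 2458 CPM with vehicle and 2225, 2482 and 2507 CPM with DHPG. The groups overlapped throughout, and the average log2 fold change was 0.0080 (SE 0.034; lower in 2 of 6 pairs; edgeR quasi-likelihood test, adjusted p = 0.99). Ppp3cb RPFs had an average log2 fold change of 0.011 (SE 0.038) and Ppp3r1 RPFs of -0.00326 (SE 0.034).

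Ppp3cb RPFs were 386 to 457 CPM in WT vehicle and 395 to 433 in WT DHPG, and 416 to 461 in Tsc2+/- vehicle and 442 to 454 in Tsc2+/- DHPG. Ppp3r1 RPFs were 1463 to 1556 CPM in WT vehicle and 1533 to 1538 in WT DHPG, and 1471 to 1668 in Tsc2+/- vehicle and 1356 to 1623 in Tsc2+/- DHPG. For both genes vehicle and DHPG overlapped in each genotype. None of the 9 genes had RPFs that were lower in 6 of 6 pairs (2.17% of all genes) or higher in 6 of 6 (2.78%).

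**Figure D3:**
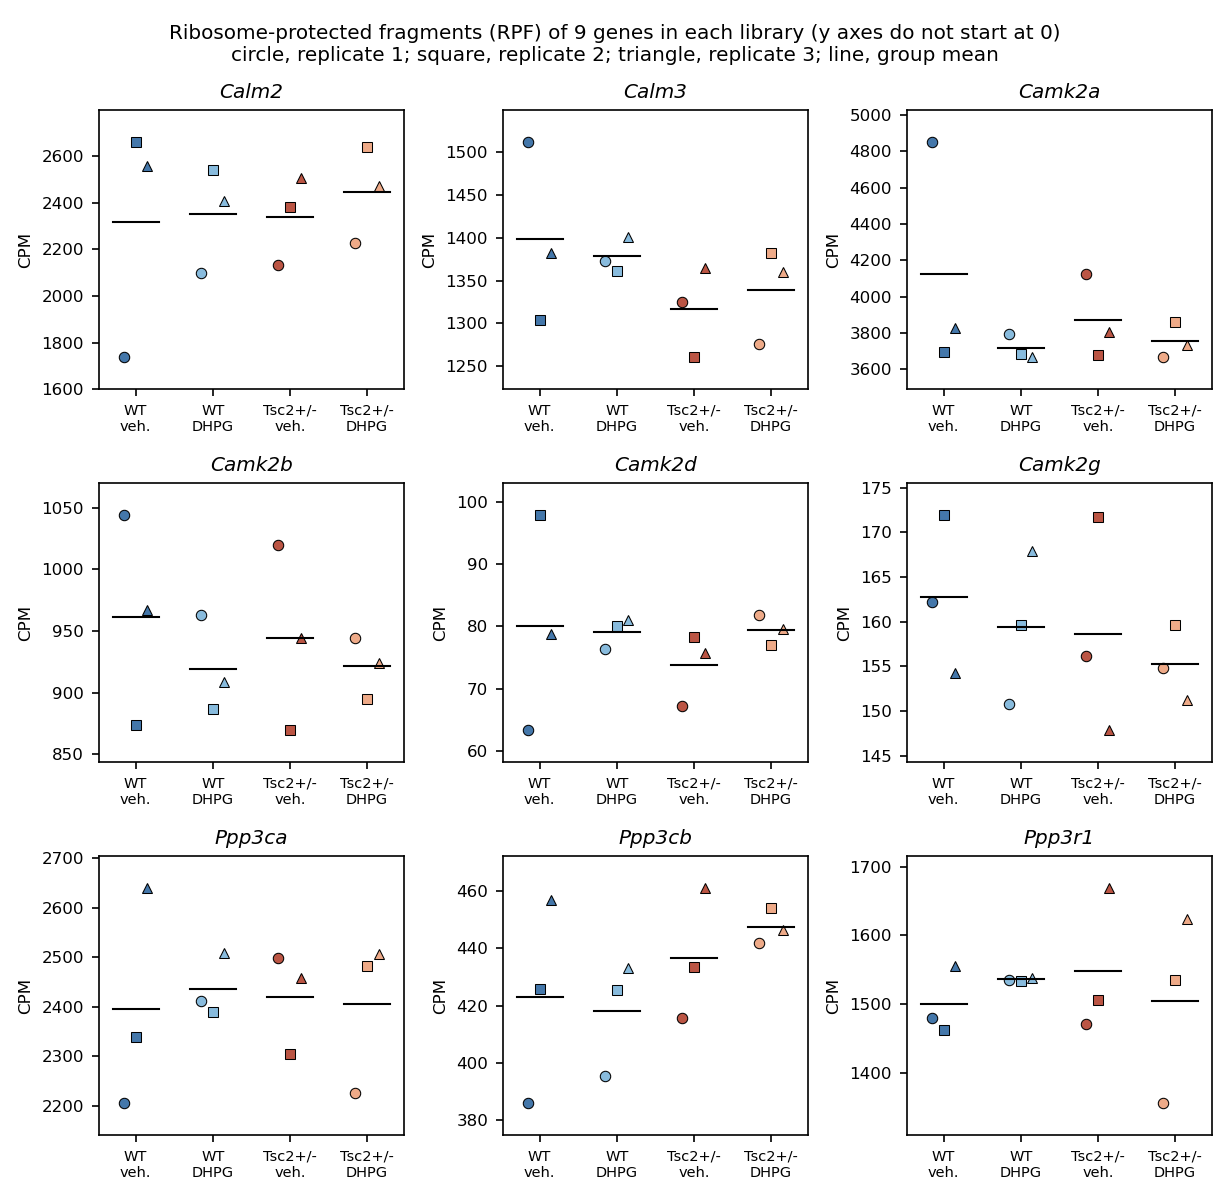
RPFs in CPM (y axes do not start at 0) of the 9 genes in each of the 12 ribosome profiling libraries, drawn as for RNA. The Ppp3ca libraries run from 2206 to 2640 CPM with no separation of DHPG from vehicle, and for Camk2a replicate 1 of WT vehicle, at 4848 CPM, lies above the other 11.

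TE, as the ratio of RPF CPM to RNA CPM within a pool of slices, was 1.04, 1.22 and 1.34 for Ppp3ca in WT vehicle and 1.28, 1.32 and 1.44 in WT DHPG. In Tsc2+/- slices it was 1.18, 1.24 and 1.22 with vehicle and 1.23, 1.39 and 1.48 with DHPG. The values were higher with DHPG in each pair, though the groups overlapped in both genotypes. Since RNA is the divisor, this is the same difference seen from the other side and is given as a description: a log2 fold change of 0.17 (SE 0.047).

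Ppp3cb had a higher TE in 6 of 6 pairs too (0.090, SE 0.052; edgeR quasi-likelihood test, adjusted p = 0.67). Without Ppp3ca it was the 1 gene of the group to do so, with 2.78% of the 12785 genes tested for TE higher in 6 of 6, and none was lower in 6 of 6 (2.29%). Ppp3r1 was higher in 5 of 6 pairs (0.11, SE 0.048; edgeR quasi-likelihood test, adjusted p = 0.55), and Calm2 in 5 of 6 pairs (0.17, SE 0.071; edgeR quasi-likelihood test, adjusted p = 0.51). None of them passed the threshold.

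Camk2a differed from these genes in direction. Its TE was 0.888, 0.672 and 0.80 in WT vehicle, against 0.643 to 0.660 in WT DHPG, and 0.652 to 0.672 in Tsc2+/- vehicle and 0.621 to 0.681 in Tsc2+/- DHPG. WT vehicle thus had the highest values and also the widest spread, and its replicate 2 lay among the other groups. In RPFs the 3 WT vehicle libraries had 4848, 3698 and 3827 CPM, and in RNA 5461, 5503 and 4782 CPM, so replicate 1 was high in RPFs and replicate 3 low in RNA. The TE change with DHPG in WT was -0.26 (SE 0.089; lower in 3 of 3 pairs; edgeR quasi-likelihood test, adjusted p = 0.35). Its value was -0.16 without the RPF library of WT vehicle replicate 1 and -0.33, past the threshold (adjusted p = 0.096), without that of replicate 2. In Tsc2+/- slices the TE change was -0.032 (SE 0.089). The difference of these changes was 0.23 (SE 0.13; edgeR quasi-likelihood test, adjusted p = 0.999).

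**Figure D4:**
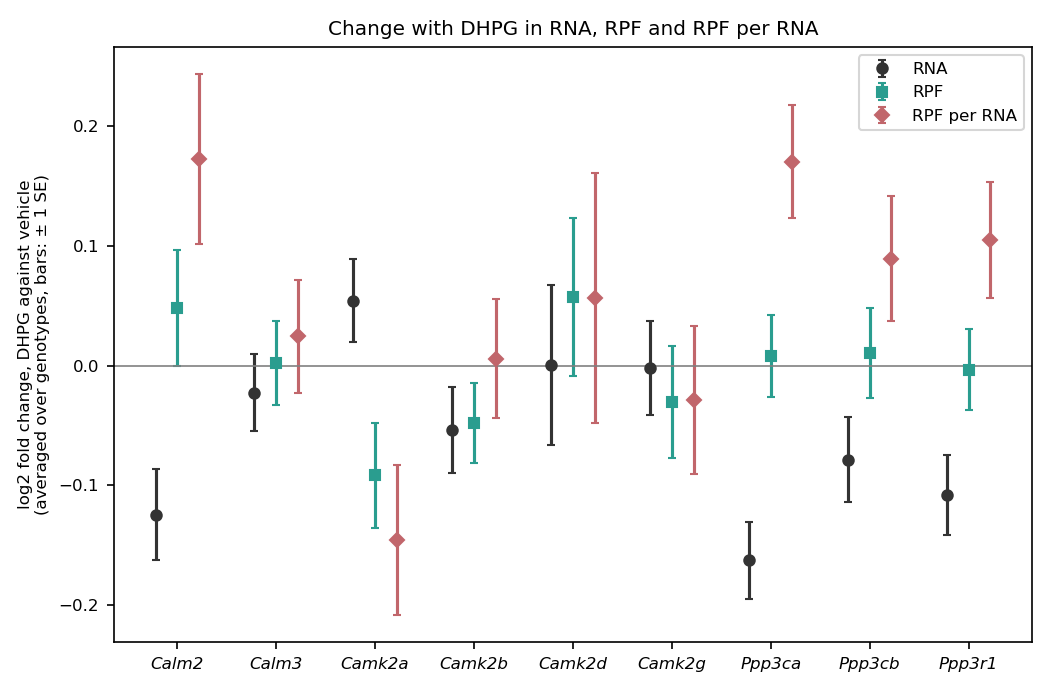
Log2 fold change of DHPG against vehicle, averaged over genotypes, for RNA, RPFs and TE (RPF per RNA) of the 9 genes; bars are 1 SE either way. The calcineurin genes have RNA values below 0 (-0.16, -0.079 and -0.11), RPF values near 0 and TE values above 0, whereas Camk2a has RNA above 0 and RPF and TE below.

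Counted over the group, the median log2 fold change with DHPG, averaged over genotypes, was -0.054 for RNA, 0.0022 for RPFs and 0.057 for TE, beside medians of -0.0012, -0.0018 and -0.00077 over all genes tested. The group medians for RNA and TE include Ppp3ca, on whose values the group was chosen. Nothing is therefore read from their distance to the medians of all genes. The RNA and TE of Ppp3ca are left out of the counts that follow, since its RNA values chose it: it passed the edgeR threshold for RNA, but not at an adjusted p under 0.05, without the replicate block or in 11 of 15 removals of a replicate number or library, and nothing is read from that call. At an adjusted p under 0.1 in edgeR, 0 of the other genes were called for RNA (0.0207% of all genes), 0 of the 9 for RPFs (0.0311%) and 0 of the others for TE (0.0469%). At an unadjusted p under 0.05 there were 3 for RNA (Calm2, Ppp3cb and Ppp3r1; 7.49% of all genes), 0 for RPFs (6.82%) and 3 for TE (Calm2, Camk2a and Ppp3r1; 8.52%). DESeq2 called 1 of the other genes in RNA (Ppp3r1, among 26 of all genes), 0 in RPFs (15 of all genes) and 0 in TE (44 of all genes).

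In WT alone, DHPG against vehicle gave 0 calls among the 9 genes for RNA (0% of all genes), RPFs (0.0311%) and TE (0.0469%) with edgeR. DESeq2 also called 0 of the 9, among 0 of all genes in RNA, 14 in RPFs and 102 in TE. At an unadjusted p under 0.05, and again without the RNA and TE of Ppp3ca, RNA had 3 genes (Calm2, Camk2a and Ppp3r1; 6.45% of all genes), RPFs 1 (Camk2a; 6.71%) and TE 2 (Camk2a and Ppp3r1; 9.07%). Camk2a RNA was 0.12 higher on the log2 scale (SE 0.049; 3 of 3 pairs; edgeR quasi-likelihood test, adjusted p = 0.73) and Camk2a RPFs had a value of -0.14 (SE 0.062; lower in 3 of 3 pairs; edgeR quasi-likelihood test, adjusted p = 0.71).

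To see what the loss of one Tsc2 allele does to these genes, Tsc2+/- was compared with WT. In vehicle slices Camk2a was the 1 gene of the group with an unadjusted p under 0.05 in RNA (4.9% of all genes). Its RNA was 5461, 5503 and 4782 CPM in WT against 6328, 5549 and 5658 CPM in Tsc2+/- slices. The log2 fold change was 0.16 (SE 0.049; higher in 3 of 3 pairs; edgeR quasi-likelihood test, adjusted p = 0.77), and it was 0.096 without WT vehicle replicate 3. Its RPFs had a value of -0.088 (SE 0.062; lower in 3 of 3 pairs), which turned to 0.026 without the RPF library of WT vehicle replicate 1, and its TE was -0.24 (SE 0.089; lower in 3 of 3 pairs; edgeR quasi-likelihood test, adjusted p = 0.84). Under DHPG the genotypes differed in Camk2a RNA by 0.033 (SE 0.049) and in its TE by -0.015 (SE 0.089).

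Both Camk2a comparisons, DHPG in WT and genotype in vehicle, share the 3 WT vehicle libraries, and the sums over excitatory neuron markers were also lowest in that group, 2666 to 3037 CPM against 2889 to 3203 CPM in the other 3 groups. The part of this in the Camk2a values was not tested, nor was that of the dentate granule markers, which had the lower sums in Tsc2+/- libraries.

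The other 8 genes had genotype differences in vehicle of -0.13 (Camk2d) to 0.050 (Camk2b) in RNA and -0.11 (Camk2d) to 0.049 (Ppp3cb) in RPFs on the log2 scale. Averaged over treatments, Ppp3cb RPFs had a log2 fold change of 0.075 (SE 0.038; edgeR quasi-likelihood test, adjusted p = 0.75). That of Calm3 RPFs was -0.064 (SE 0.035; edgeR quasi-likelihood test, adjusted p = 0.76). Neither had an unadjusted p under 0.05 (6.63% of all genes). Ppp3ca hardly differed between genotypes, by -0.021 (SE 0.032) in RNA and -0.00042 (SE 0.034) in RPFs averaged over treatments.

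For Tsc2+/- against WT in vehicle, edgeR called 0 of the 9 genes for RNA (0.0896% of all genes), RPFs (0.0233%) and TE (0% of all genes). DESeq2 called 0 of the 9, among 13 of all genes in RNA, 10 in RPFs and 1 in TE. The counts at an unadjusted p under 0.05 were 1 for RNA (Camk2a; 4.9% of all genes), 0 for RPFs (6.55%) and 1 for TE (Camk2a; 5.73%). Averaged over treatments the calls were again 0 for RNA (0.227%), RPFs (0.0621%) and TE (0%) with edgeR. With DESeq2 they were 0 as well, among 38 of all genes in RNA, 9 in RPFs and 0 in TE. In edgeR the counts at an unadjusted p under 0.05 were 1 (Camk2a, 6.12%), 0 (6.63%) and 0 (4.54%).

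Whether DHPG acted differently in the genotypes was tested as an interaction. None of the 9 genes was called by edgeR or DESeq2 for RNA (0% of all genes), RPFs (0%) or TE (0%), and none had an unadjusted p under 0.05 (3.47%, 3.81% and 4.08% of all genes). For Ppp3ca RNA the DHPG effect differed between genotypes by -0.032 (SE 0.064), for Ppp3cb by 0.017 (SE 0.071) and for Ppp3r1 by 0.00590 (SE 0.067). The smallest p in RNA was that of Camk2b (-0.14, SE 0.071; edgeR quasi-likelihood test, adjusted p = 0.999), whose RNA was lower with DHPG in 3 of 3 pairs in Tsc2+/- slices and in 1 of 3 in WT.

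The wider calmodulin pathway was read from a list of 35 genes, among them 10 further kinases, 2 CaMKII inhibitors, 3 calmodulin buffers, 2 other calcineurin subunits, 5 calcineurin regulators and anchors, 7 calcineurin substrates and 5 cyclases, phosphodiesterases and a nitric oxide synthase. Of these, 35 were tested in RNA and 33 in RPFs and TE. In each of the 5 comparisons in each measure edgeR called 0, against 0% to 0.227% of all genes, so this says little about the list. For DHPG averaged over genotypes, 4 had an unadjusted p under 0.05 in RNA, all higher (7.49% of all genes in either direction), 4 in RPFs, all lower (6.82%), and 3 in TE (8.52%). The median RNA change of the list was -0.0041.

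By role, the RNA values with DHPG were mixed in direction. Of the 10 further kinases 3 were higher and 7 lower, between -0.072 and 0.13 on the log2 scale. Of the 7 calcineurin substrates, among them the NFAT transcription factors, 6 were higher and 1 lower. Both other calcineurin subunit genes had values below 0: Ppp3cc -0.052 (SE 0.075) and Ppp3r2, a testis subunit with few counts here, -0.30 (SE 0.44), the lowest of the list. The highest was Nfatc4 at 0.73 (SE 0.42), also with a wide error. In RPFs the lowest value was that of Ppp1r1a (-0.19, SE 0.10) and the highest that of Ppp3cc (0.15). In TE the lowest value was that of Nfatc1 (-0.19, SE 0.22) and the highest that of Ppp3cc (0.20, SE 0.13), and all 6 substrates tested had a value below 0.

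The genes whose RNA followed that of Ppp3ca most closely were sought over the 12 RNA libraries, after the mean of each replicate number was subtracted, among 10909 genes with a mean count of at least 100. The 5 nearest were Ddx23 (Pearson's r = 0.928), Kcnab1 (0.927), Nsg1 (0.926), Fbxl5 (0.919) and Vwa5a (0.913). Within the group Ppp3r1 was 17th of all genes (0.856) and Calm2 175th (0.741), followed by Ppp3cb (0.535) and Camk2b (0.528). Camk2a (-0.317) and Camk2d (-0.128) had negative values. The 12 points share libraries and treatment, so these values are descriptive.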

How the data were processed

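Per the labels and the study's methods, adapters were trimmed (Cutadapt), reads matching rRNA and tRNA were removed (Bowtie2), and uniquely mapped reads (TopHat2, mm10) without duplicate molecular identifiers were kept. RNA-seq libraries were poly(A)-selected with a stranded kit, and RPFs were 26 to 34 nt long. The authors used RSEM, and its expected counts were deposited as whole numbers for each gene, over whole transcripts for RNA and over coding sequences without the first and last 30 nt for RPFs. Their later ComBat and DESeq2 steps were run only as alternatives.

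Groups came from the labels, and 0 columns lacked a sample. Replicate numbers were assumed to stand for the batch, which the labels do not state. Replicates are separate pools of mice. Genes were kept by filterByExpr (edgeR 4.0.16, R 4.3.3) at a minimum count of 10 and scaled by TMM. The edgeR quasi-likelihood F test was two-sided, with terms for group and replicate number, and fitted over all 12 libraries of an assay. TE was tested as the assay by group interaction over 24 libraries and 12785 genes. The Benjamini-Hochberg adjustment ran over every gene in a fit, and calls were made at an adjusted p under 0.1. SEs came from the F statistic. CPM were computed with TMM factors, and a prior count of 2 was used on the log2 scale. Same-numbered pairs are libraries with the same replicate number. Annotation and sequences are RefSeq on GRCm38.p6, with the transcript of the longest coding sequence for lengths.

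The 9 genes, the pathway list and the markers were chosen with earlier results of these data known. All 9 genes are named, and from the pathway list those called, the genes with the lowest and highest values for DHPG and, chosen after their values were seen, the CaMKII inhibitors. Of the list, 1 item is not reported here. Alternatives were DESeq2 1.42.0, ComBat (sva 3.50.0) then DESeq2, no replicate block, other scaling, no filter, only the groups compared, an adjusted p under 0.05, halved RPF counts of replicates 2 and 3, a lysate block, another gene model, and leaving out replicate numbers or libraries. The fits were also run on simulated counts. The changes planted there were larger than the DHPG differences averaged over genotypes of the 9 genes, so that run says nothing on differences of this size. The number of libraries limits precision, and p-values set a difference against the spread between these pools as estimated in each fit.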

Additional observations from a re-analysis of the deposited data

How the results depend on the processing

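Directions held under every alternative tried for the RNA of Ppp3cb, Ppp3r1 and Calm2 with DHPG. The RNA of Ppp3ca also kept its direction (-0.21 to -0.13 when replicates or libraries were left out), which carries no weight since its values chose it. The limits lie in 3 libraries a group and differences of about 10%. For RNA with DHPG averaged over genotypes, the 1 gene called (Ppp3ca) became 0 at an adjusted p under 0.05 and 0 without the replicate block, and 2 with DESeq2. Leaving out replicate numbers or libraries gave 0 to 2. Ppp3ca was not called without any one replicate number, nor without replicate 1 or 3 of any group or replicate 2 of WT DHPG, except WT vehicle replicate 3, and Calm2 was added without WT vehicle replicate 2. The same removals gave 0 to 1 for RNA in WT (Calm2, without WT vehicle replicate 2), 0 to 1 for TE in WT (Camk2a, without the RPF library of WT vehicle replicate 2) and 0 to 1 for TE averaged over genotypes (Ppp3ca, without the RPF library of WT vehicle replicate 3). The other 11 counts were 0 under all of these removals. Libraries with the same number deviated together only weakly (r = 0.023 to 0.14 in RNA and 0.033 to 0.26 in RPFs). For libraries with different numbers r was -0.13 to 0.024 in RNA and -0.19 to 0.067 in RPFs. The number was kept as a stand-in for batch, which is an assumption, and not as a pairing.

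Signs changed for values of 0.11 or less in size. With DHPG averaged over genotypes, Camk2d RNA was -0.00313 without the replicate block and -0.041 after ComBat, Camk2g RNA 0.016 after ComBat and 0.00200 with upper quartile scaling, and Calm3 RPFs -0.000815 with halved counts. Leaving out replicates or libraries, RNA ranged from -0.13 to 0.071 for Camk2d and -0.033 to 0.033 for Camk2g. RPFs ranged from -0.016 to 0.10 for Calm2, -0.045 to 0.051 for Calm3, -0.055 to 0.17 for Camk2d, -0.078 to 0.0077 for Camk2g, -0.022 to 0.038 for Ppp3ca, -0.016 to 0.050 for Ppp3cb and -0.029 to 0.025 for Ppp3r1. TE ranged from -0.0067 to 0.071 for Calm3, -0.025 to 0.036 for Camk2b, -0.015 to 0.14 for Camk2d and -0.063 to 0.015 for Camk2g. Camk2a RPFs ranged from -0.15 to 0.026 for genotype in vehicle, -0.068 to 0.025 for genotype averaged over treatments and -0.0022 to 0.18 for the interaction. The cause was not tested. Over all genes, the count called for RNA with DHPG averaged over genotypes was 3, against 1 at an adjusted p under 0.05 and 26 with DESeq2. For TE with DHPG it was 6 averaged over genotypes (0 without the block, 44 with DESeq2) and 6 in WT (1 and 102), and for RPFs 4 averaged over genotypes (1 without the block, 25 without a filter) and 4 in WT (37 with only the groups compared). Without the RNA library of WT vehicle replicate 2 the counts were 44 for RNA averaged over genotypes, 112 for RNA in WT (0 with all libraries), 40 for TE averaged over genotypes and 190 for TE in WT, and without the RPF library of WT vehicle replicate 2 they were 128 for TE in WT and 26 for RPFs in WT.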

Other observations

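The 2 genes for inhibitors of CaMKII were looked at together after their values were seen. Camk2n1 had a TE value with DHPG averaged over genotypes of 0.18 (SE 0.064; edgeR quasi-likelihood test, adjusted p = 0.41), with -0.067 (SE 0.038) in RNA and 0.11 (SE 0.056) in RPFs. Camk2n2 had an RNA value of 0.15 (SE 0.055; edgeR quasi-likelihood test, adjusted p = 0.54) and an RPF value of 0.014 (SE 0.14). Its TE value was -0.15, opposite in sign to that of Camk2n1. Neither passed the threshold.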
